A study of Homo sapiens with 20 samples.

Results

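SLK and 9 related protein kinases of the STE20 family were followed in summit lists from chromatin immunoprecipitation sequencing (ChIP-seq) of PC-3 cells, an established human prostate cancer cell line. The 10 genes were taken from a fixed list (SLK, STK10, STK3, STK4, STK24, STK25, STK26, MAP4K4, TNIK and MINK1), and all 10 were found among the 20033 protein-coding genes of the GENCODE annotation used. Wild-type (WT) cells were compared with SLK knockout cells (SLK-KO), with 3 libraries per genotype for RNA polymerase II (POL2) and 3 for the transcription factor c-Myc (MYC). All SLK-KO libraries carry the same cell name, PSD10, so other differences of those cells from WT and loss of SLK cannot be told apart. The 6 IgG and 2 Input libraries were not analysed here. A summit is the single base at the top of a called peak. Summits were ranked by their score within each list (rank 1 is the best, and summits with equal scores share a mean rank). A gene was counted when a summit lay within 1 kb of any of its annotated transcription start sites (TSSs), and its gene body was the rest of the gene.

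STE20 kinases are serine/threonine kinases that act upstream of other kinases and on the cytoskeleton. SLK and STK10 (also called LOK) phosphorylate ezrin, radixin and moesin, which tie actin to the plasma membrane. STK3 and STK4 are the Hippo kinases that act on LATS kinases and so restrain YAP and TAZ. STK24, STK25 and STK26 bind PDCD10 and work with striatin complexes in cell polarity and junctions. MAP4K4, TNIK and MINK1 form a further branch that acts on JNK signalling and on LATS, and TNIK also binds the Wnt effector TCF4. The study's title calls SLK a co-regulator of c-Myc, and the comparison asks whether POL2 or MYC summits at SLK and at its relatives differed between the genotypes.

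POL2 summits lay at the promoters of most of these kinases in both genotypes, from the best 18.5% of the list (STK4, SLK-KO replicate 1) to 99.4% (MAP4K4, WT replicate 3). A MYC summit was called at 1 of the 10, against 9.66% of all coding genes. Of the 10 genes, 9 had a POL2 promoter summit in at least 1 library, against 53.7% of all coding genes. SLK, STK10, STK4, STK26 and MAP4K4 shared a pattern, with a summit in WT replicates 1 and 3 and in every SLK-KO library. That made 5 of 9 kinases with 2 WT and 3 SLK-KO libraries, against 28.5% of the 10765 coding genes with a POL2 promoter summit. STK24 and MINK1, 2 of 9, had one in the 3 SLK-KO libraries and in no WT library, against 2.87%. Without WT replicate 1 the same 2 kinases had this split, against 15.9% of 10484 genes, and without SLK-KO replicate 2 against 4.44% of 10674, so that the share over all genes depends mostly on WT replicate 1. STK25, 1 of 9, had one only in WT replicate 1, against 2.91%. TNIK, 1 of 9, had one in a single library of each genotype, against 3.04%, and STK3 had none. No difference between the genotypes passed the test at any of the 10 genes: an exact permutation of 3 against 3 libraries has 20 relabellings and cannot give a two-sided p under 0.1.

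The promoter of SLK is shown because SLK is the targeted gene, that of STK4 because it holds an E-box, the CACGTG motif that MYC binds, with no MYC summit in the lists, and that of MINK1 because its POL2 summits came from SLK-KO lists alone. The sequences are the RefSeq promoter table's (build GRCh38.p14), plus strand, and end at the base before the first annotated TSS of the gene. Capitals mark CACGTG and the GC box GGGCGG on either strand.
SLK, chr10:103966890-103967139: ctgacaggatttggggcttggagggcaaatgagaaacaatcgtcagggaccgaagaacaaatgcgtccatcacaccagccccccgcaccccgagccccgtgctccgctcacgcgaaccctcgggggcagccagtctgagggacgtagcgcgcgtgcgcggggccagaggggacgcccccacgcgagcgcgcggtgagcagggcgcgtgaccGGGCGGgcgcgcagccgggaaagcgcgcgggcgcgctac
STK4, chr20:44966262-44966493: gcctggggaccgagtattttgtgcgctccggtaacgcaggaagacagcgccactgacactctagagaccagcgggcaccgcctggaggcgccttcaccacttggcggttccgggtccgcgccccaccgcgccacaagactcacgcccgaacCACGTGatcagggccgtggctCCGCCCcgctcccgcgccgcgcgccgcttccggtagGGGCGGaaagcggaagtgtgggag
MINK1, chr17:4833090-4833339: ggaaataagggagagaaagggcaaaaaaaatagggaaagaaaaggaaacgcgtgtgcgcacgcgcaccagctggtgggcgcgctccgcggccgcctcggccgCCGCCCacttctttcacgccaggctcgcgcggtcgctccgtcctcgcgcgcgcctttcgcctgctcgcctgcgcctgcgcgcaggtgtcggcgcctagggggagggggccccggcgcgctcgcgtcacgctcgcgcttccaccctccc

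The RefSeq table matched 8 of the 10 kinases, with 300 bases each from 250 before to 50 after the RefSeq start, and STK10 and STK3 had no entry. The STK26 window, 132023339 to 132023638, lay wholly downstream of the canonical TSS at 132023302 from which its summits are measured. Its values are therefore not those of the sequence before that TSS. The 8 windows were rich in G and C, from 64.3% at TNIK to 87.0% at STK24, against a median of 62.7% over 15842 coding promoters of the same length. The ratio of observed to expected CpG was 1.08 at SLK, 1.08 at MAP4K4 and 1.19 at MINK1, above the 90th percentile of all promoters (1.02), and lowest at TNIK, at 0.57, against a median of 0.76. A GC box stood in all 8 windows, where 58.5% of all promoters held one. TATAAA, the TATA box, was in none of the 8 and in 9.63% of all promoters. CCAAT was in the TNIK window alone, against 36.4% of all promoters. CACGTG was in the STK4 and STK25 windows, against 8.88% of all promoters. Both strands were searched for each motif, the GC box may overlap neighbouring GC boxes, and a match is a description of the sequence only.

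SLK (ENSG00000065613.15, GRCh38 chromosome 10, 103967140 to 104029233, plus strand, 19 exons in the canonical transcript) was examined first as the targeted gene. Its best POL2 promoter summit ranked 10241.5 of 17126 in WT replicate 1 and 6574 of 9925 in WT replicate 3, and WT replicate 2, whose list ends at 5047, had none. In SLK-KO it ranked 6546 of 19017, 7504.5 of 15436 and 7437.5 of 16298 in replicates 1 to 3. POL2 thus stayed called at the SLK promoter in every knockout list, and such lists carry no information on the SLK protein. The WT summits lay 6 and 77 bp downstream of the canonical TSS. The SLK-KO summits lay 220 bp upstream and 56 and 111 bp downstream, with a second and weaker one at 585 bp in replicate 3. All but the upstream summit were in UTR sequence of exon 1. An unnamed non-coding gene, ENSG00000289744, has a TSS 5 bp from the upstream summit of SLK-KO replicate 1, and the best summits of the other 4 lists lay 99 to 204 bp from a TSS of a second one, ENSG00000289745. POL2 on SLK and on these genes cannot be told apart at such distances. No list held a POL2 summit in the body of SLK.

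For ranks, lists must have the same length, so each POL2 list was cut to its best-scored 5047 summits, the length of WT replicate 2. SLK then had no promoter summit in any of the 6 lists, and the genotypes could not be compared. With WT replicate 2 left out, lists of 9925 summits could be compared, a choice made after the data were seen. In these SLK was missing from WT replicate 1 and ranked 6574 in WT replicate 3, while all SLK-KO lists held it, at 6546 to 7504.5. The mean rank, with a missing gene set just past the end of the list, was 8250 in WT and 7163 in SLK-KO (exact permutation p = 0.4, adjusted p = 0.789 over 10765 genes). The SLK-KO ranks overlapped the WT ranks. Better ranks in SLK-KO with no overlap were then found at 15.9% of the 10765 genes with a POL2 promoter summit in any list, and better ranks in WT at 15.4%.

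**Figure D1:**
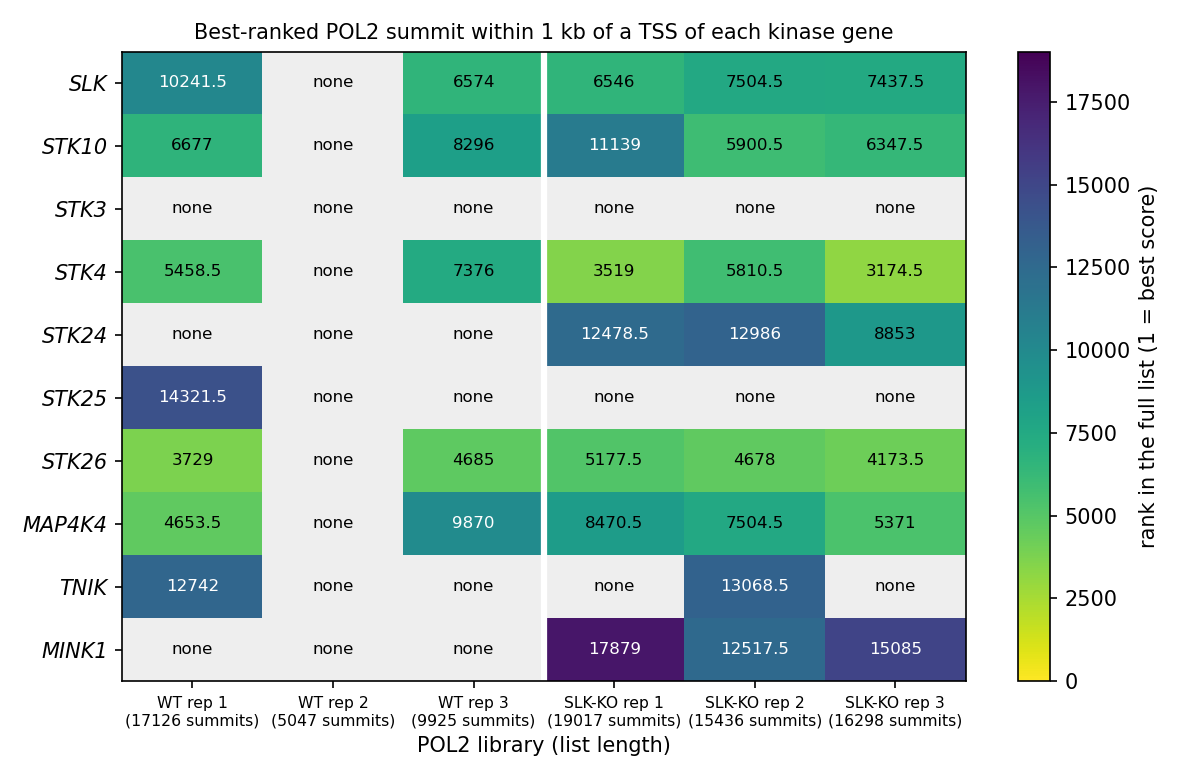
Rank of the best POL2 promoter summit of each kinase gene (rows) in each POL2 library (columns, with the length of the list), where 1 is the best score and grey cells had none. WT replicate 2, with 5047 summits, had none of the 10 genes, and STK24 and MINK1 are filled only in the SLK-KO columns; ranks from lists of different lengths are not a change in binding.

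The genes outside the family with the POL2 pattern most like that of SLK were ZFYVE28, DCLRE1C and ZNF610. Likeness was the mean absolute difference in rank percentile over the 6 POL2 libraries, with 100 for a library without the gene. It was 2.35 points for ZFYVE28, 2.54 for DCLRE1C and 3.44 for ZNF610. The percentiles depend on the length of each list, and the likeness is a description.

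STK10 (chromosome 5, 172042079 to 172188224, minus strand), the closest relative of SLK, had the same pattern of libraries. Its best POL2 promoter summit ranked 6677 in WT replicate 1 and 8296 in WT replicate 3. In SLK-KO it ranked 11139, 5900.5 and 6347.5. The 5 summits lay in exon 1, 48 to 250 bp downstream of the TSS, in UTR sequence for 4 of them and in coding sequence for that of WT replicate 3. In lists of 9925 summits the mean ranks were 7487 in WT and 7391 in SLK-KO, where SLK-KO replicate 1 missed the gene (exact permutation p = 1, adjusted p = 1). Chromosome 5 held 4.47% to 4.85% of POL2 summits in WT and 5.34% to 5.48% in SLK-KO. Its part in these values was not tested.

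STK4 (chromosome 20, 44966494 to 45080021, plus strand), the Hippo kinase also known as MST1, ranked best of the 10 kinases in SLK-KO replicates 1 and 3. Its POL2 promoter summit ranked 5458.5 in WT replicate 1 and 7376 in WT replicate 3, and 3519, 5810.5 and 3174.5 in the SLK-KO lists. Only SLK-KO replicates 1 and 3 kept it in lists of 5047 summits. In lists of 9925 the mean rank was 6417 in WT and 4168 in SLK-KO, and the ranges overlapped through SLK-KO replicate 2 (exact permutation p = 0.3, adjusted p = 0.780). Chromosome 20 as a whole held a lower share of POL2 summits in SLK-KO, 3.78% to 3.89% against 4.20% to 4.44% in WT, and its part in these values was not tested. Of the 5 summits, 4 lay 46 to 187 bp upstream of the canonical TSS, which is also the start region of the divergent non-coding gene STK4-DT, 52 to 77 bp away. POL2 on STK4 and on STK4-DT cannot be told apart at this distance.

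STK3 (chromosome 8, 98371228 to 98942827, minus strand) is the paralog of STK4 and also a Hippo kinase. It had no POL2 and no MYC summit within 1 kb of its 19 annotated TSSs or inside its 571.6 kb in any of the 12 lists. The nearest POL2 summit to its canonical TSS was 118742 bp away, in SLK-KO replicate 3, and lay 1603 bp outside the 5′ limit of the gene. With a TSS window of 2 kb STK3 had a POL2 promoter summit too, in lists of both genotypes, WT replicate 1 and SLK-KO replicate 3 among them. A missing call within 1 kb says only that no peak there passed the caller's threshold in these lists, whose read depth is unknown.

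Among the kinases that bind PDCD10, STK26 (chromosome X, 132023302 to 132075943, plus strand) had a POL2 promoter summit in 5 lists. It ranked 3729 and 4685 in WT replicates 1 and 3, and 5177.5, 4678 and 4173.5 in SLK-KO. It was the only one of the 10 kinases found in both genotypes in lists of 5047 summits, in WT replicates 1 and 3 and SLK-KO replicates 2 and 3. In lists of 9925 its mean rank was 4207 in WT and 4676 in SLK-KO, with overlapping ranges (exact permutation p = 0.5, adjusted p = 0.886). Of its 5 summits, 4 lay 23 to 60 bp into the UTR of exon 1, and that of SLK-KO replicate 3 lay 151 bp upstream. The next annotated TSS of another gene was at least 70901 bp away. Chromosome X held 2.02% to 2.50% of POL2 summits in WT and 2.57% to 2.77% in SLK-KO, and its part in these values was not tested.

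STK24 (chromosome 13, 98445185 to 98577940, minus strand) had promoter summits only in SLK-KO lists. Their best ranks were 12478.5, 12986 and 8853, and each of the 3 lists held a second, weaker summit 579 to 1040 bp downstream of the canonical TSS, in intron 1. The best-ranked summits lay 243 and 495 bp upstream and 57 bp downstream of that TSS, 106 to 358 bp from a TSS of the antisense gene STK24-AS1. POL2 on the 2 genes cannot be told apart here. WT replicate 1, with 17126 summits, was longer than 2 of the 3 SLK-KO lists and had no STK24 promoter summit. The best ranks in SLK-KO replicates 1 and 2 were larger than the lengths of the WT replicate 2 and 3 lists. Chromosome 13 held 1.49% to 1.79% of POL2 summits in WT and 2.09% to 2.20% in SLK-KO, and its part in this pattern was not tested.

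STK24 also held the most recurrent summits inside a gene body. In intron 2, 92176 to 92236 bp from the canonical TSS, a POL2 summit was called in WT replicate 1 and in all 3 SLK-KO libraries within 60 bp of each other. It ranked 6891.5 of 17126 in WT replicate 1, and 11389 of 19017, 8420 of 15436 and 11092 of 16298 in SLK-KO. The nearest annotated TSS of another gene, that of FARP1, was 35860 bp or more away, and no TSS of STK24 lay within 18310 bp. The stretch spanned by the 4 summits is given on the minus strand (hg38), and it holds no CACGTG.
STK24 intron 2, chr13:98484871-98484931: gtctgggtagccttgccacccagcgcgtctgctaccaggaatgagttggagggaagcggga

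STK25 (chromosome 2, 241492670 to 241509730, minus strand) had a POL2 promoter summit in WT replicate 1 alone, at rank 14321.5, 308 bp upstream of the canonical TSS and 12 bp from the TSS of an unnamed non-coding gene. WT replicate 3 had a summit at rank 8699.5 in the 3′ UTR of STK25, 310 bp from an annotated TSS of FARP2. No SLK-KO list held a summit at this gene. Chromosome 2 held 7.05% to 7.08% of POL2 summits in WT and 5.55% to 5.85% in SLK-KO, without overlap, and its part in this pattern was not tested. The E-box of the STK25 promoter window begins 249 bp before the RefSeq start and is shown on the minus strand.
STK25 E-box, chr2:241508805-241508834: cCACGTGccccgcccgcccaggcgcgcggc

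Among the MAP4K branch, MAP4K4 (chromosome 2, 101696850 to 101894690, plus strand) had a POL2 promoter summit in 5 lists. It ranked 4653.5 in WT replicate 1 but only 9870 of 9925 in WT replicate 3, and 8470.5, 7504.5 and 5371 in SLK-KO. In lists of 9925 the WT ranks spanned the whole SLK-KO range, and the mean ranks were 7262 in WT and 7115 in SLK-KO (exact permutation p = 1, adjusted p = 1). These summits lay 25 to 364 bp upstream of the canonical TSS, at least 100208 bp from a TSS of another gene, and SLK-KO replicate 1 had a second one at 823 bp with rank 18983.5. In intron 2, WT replicate 3 had a summit 2496 bp and SLK-KO replicate 1 had summits 2106 and 8830 bp downstream of the TSS.

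MINK1 (chromosome 17, 4833340 to 4898061, plus strand) had POL2 promoter summits in the 3 SLK-KO lists alone, at 81.1% to 94.0% of the list, with rank 17879 of 19017, 12517.5 of 15436 and 15085 of 16298. They were tightly placed, 189 to 256 bp downstream of the TSS in exon 1. In intron 1, SLK-KO replicates 1 and 2 had a further summit, 16209 and 15919 bp from the TSS. TNIK (chromosome 3, 171058414 to 171460408, minus strand) had a summit at rank 12742 in WT replicate 1 and at 13068.5 in SLK-KO replicate 2. They lay 6 and 5 bp downstream of the TSS, on neighbouring bases, and 116 to 117 bp from a TSS of another annotated gene. No summit was called in the rest of the 402 kb of TNIK.

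**Figure D2:**
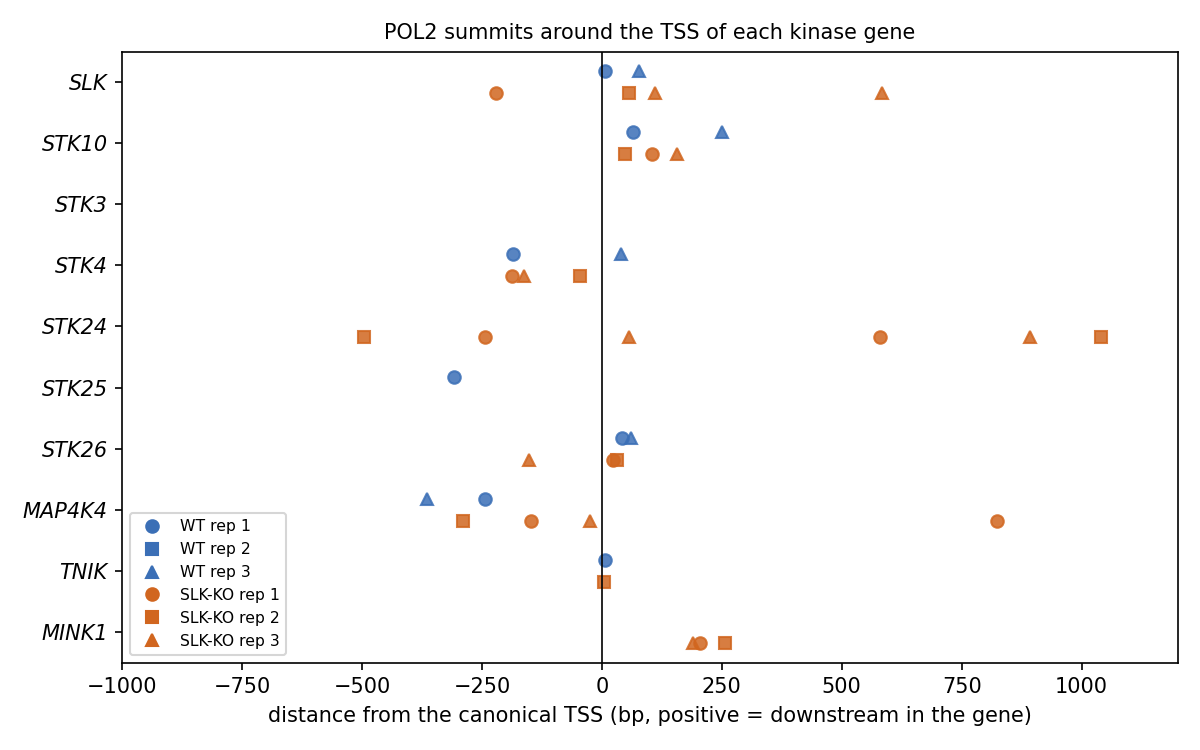
Distance of each POL2 summit from the canonical TSS of its gene (x axis, bp, positive into the gene) for the 10 kinase genes (rows), with WT in blue above and SLK-KO in orange below and the marker shape giving the replicate. Of the summits drawn, those of MINK1 sit together at 189 to 256 bp, those of STK24 spread from 495 bp upstream to 1040 bp downstream, and the STK3 row is empty.

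For the split of 3 SLK-KO against 0 WT libraries at STK24 and MINK1, the exact permutation p was 0.1 for each of the 2 genes, the smallest possible, and the adjusted p was 1. The reverse, 3 WT and 0 SLK-KO, was found at 0 of 9, against 0.0186%. The count of 2 rested in part on low-scored summits. At MINK1 the scores were 2.04, 3.76 and 2.58 in SLK-KO replicates 1 to 3. At STK24 the best summits scored 5.05, 3.52 and 7.87, so only that of SLK-KO replicate 2 was under 5. With a score of at least 5 neither gene had the split, which 3.30% of 9975 genes then had. In lists of 5047 summits neither gene had any promoter summit, so neither could have the split, which 2.95% of 6784 genes had. In lists of 9925 without WT replicate 2 the split was found at 0 of the 9, against 2.38%. For STK24 and MINK1 this too was fixed by the cut, since both ranked beyond 9925 in SLK-KO replicates 1 and 2. Only 6 of the 9 had a summit at this length, and 2.7% of the 9469 genes with one had the split. When WT replicate 1 was the only WT list and all lists had 15436 summits, STK24 kept it and MINK1 did not, since SLK-KO replicate 1 lost its MINK1 summit, and STK25 had the reverse split. Over 10559 genes the shares were 3.78% for SLK-KO alone and 3.12% for WT alone.

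The shared pattern of the other 5 kinases, present in WT replicates 1 and 3 and SLK-KO replicates 1 to 3 and missing in WT replicate 2, was also that of 27.4% of the 10765 genes. None of the 9 kinases had a POL2 promoter summit in all 6 libraries, against 33.6% of those genes. More SLK-KO than WT libraries held 7 of the 9, against 56.8%, and more WT libraries held 1 of the 9, against 4.44%. In lists of 5047 summits, promoter ranks without overlap between the genotypes were found at 0 of the 9, against 8.57% with better ranks in SLK-KO and 5.98% with better ranks in WT. Over all these genes the smallest adjusted p was 0.687. No coding gene could pass at 0.05 by rank, since the exact permutation p cannot fall under 0.1 with these libraries. Of the 9 kinases, 6 (SLK, STK10, STK24, STK25, TNIK and MINK1) lay outside the best 5047 summits of every list and could not be called by rank. Lists of that length held 3 of the 9 kinases, and 6784 of the 10765 genes. Without SLK-KO replicate 2, STK4 ranked better in SLK-KO with no overlap, which brought the count to 1 of 9, against 11.5% of the 10765 genes.

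The number of kinases with a POL2 promoter summit was lowest in the shortest lists, those of WT replicates 2 and 3. It was 7, 0 and 5 of 10 in the WT lists and 7, 8 and 7 in the SLK-KO lists. WT averaged 4.00 ± 3.61 and SLK-KO 7.33 ± 0.577 (SD, n = 3 each), and WT replicate 1 lay inside the SLK-KO range. Over all coding genes the shares were 47.3%, 19.1% and 35.3% in WT and 49.0%, 45.1% and 47.2% in SLK-KO, and WT replicates 2 and 3 were lowest by both measures. In lists of 5047 summits the counts were 2, 0 and 1 in WT and 1, 1 and 2 in SLK-KO, a difference of 0.33. With WT replicate 2 left out the difference in the full lists was 1.33, and in lists of 9925 it was 0.50. The share of all coding genes in each list was not counted at equal length, so the smaller differences have no such share beside them.

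**Figure D3:**
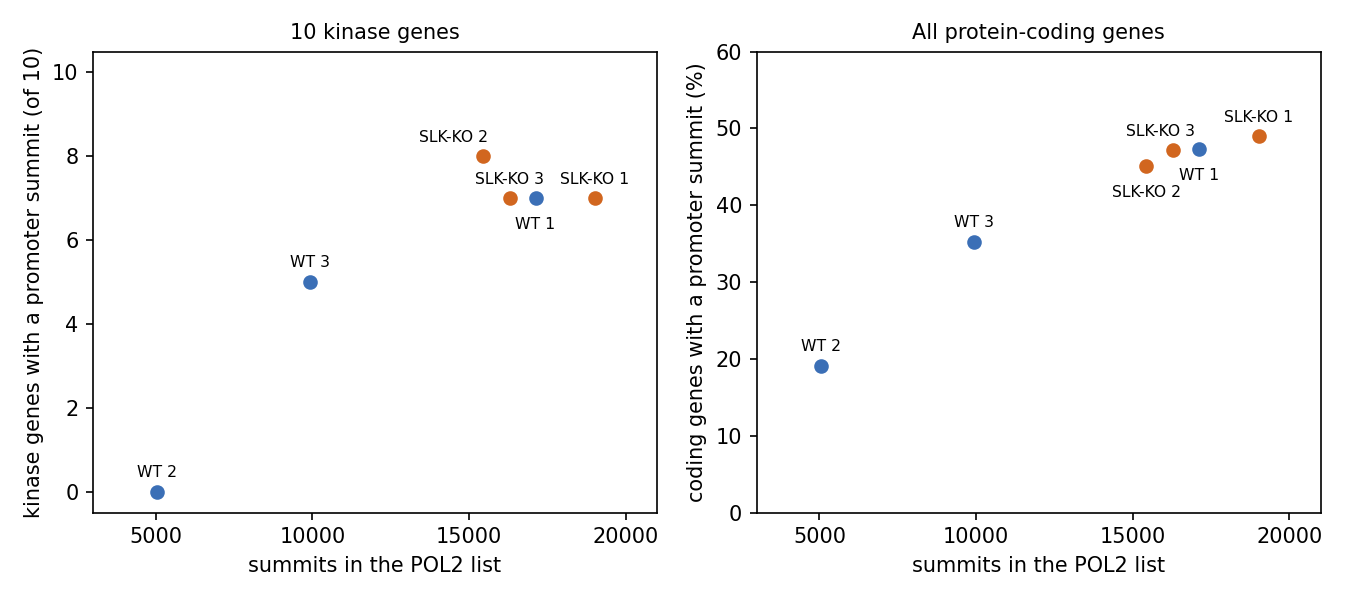
Number of the 10 kinase genes (left) and percent of all protein-coding genes (right) with a POL2 promoter summit, against the number of summits in each POL2 list, with WT in blue and SLK-KO in orange. In both panels WT replicate 2 is lowest, WT replicate 3 next, and WT replicate 1 lies among the SLK-KO lists.

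Within gene bodies, POL2 summits were few. They numbered 2, 0 and 2 in WT and 4, 2 and 1 in SLK-KO over the 10 genes, all in STK24, STK25, MAP4K4 and MINK1. SLK, STK10, STK3, STK4, STK26 and TNIK had none, and TNIK and STK3 are the longest of the 10 genes. Over all 20033 coding genes, 4279 had a POL2 body summit in at least 1 list. Counts without overlap between the genotypes were found at 0 of the 4, against 8.53% of 4279 coding genes with more in SLK-KO and 0.0935% with fewer. The lowest exact permutation p was 0.4, at MINK1, with an adjusted p of 1. The count became 1 of 4 without WT replicate 1 (STK24), when 23.1% of 3855 genes had more in SLK-KO. It also became 1 of 4 without SLK-KO replicate 3 (MINK1), when 13.7% of 4060 genes did.

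MYC summits were called at 1 of the 10 kinases. The only one lay in STK10, in SLK-KO replicate 2, at rank 882 of 1420 with a score of 4.73. It was in intron 5 of the canonical transcript, 80501 bp from the main promoter and 303 bp from an internal annotated TSS, with no CACGTG within 100 bp. Among MYC summits on assembled chromosomes, 40.6% to 45.3% in WT and 29.4% to 30.9% in SLK-KO had that motif within 100 bp. The 81 bases centred on the STK10 summit are given on the minus strand (hg38), the strand of the gene.
STK10 MYC summit, chr5:172107683-172107763: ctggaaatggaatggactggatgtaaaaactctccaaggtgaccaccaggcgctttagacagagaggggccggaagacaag

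At SLK no MYC list held a summit, and the nearest, in SLK-KO replicate 1, was 1252377 bp from the TSS. At STK4, whose promoter E-box is printed above, the nearest MYC summit was 6037 bp from the TSS, in SLK-KO replicate 2. At STK25, with the other promoter E-box, it was 128029 bp away. A count of 1 in 10 kinases compares with 9.66% of all coding genes that had a MYC promoter summit in at least 1 list. A MYC promoter summit in 3 SLK-KO and 0 WT libraries was found at 0 of the 1 kinase with any MYC promoter summit, against 9.04% of the 1935 genes with one. The summit of STK10 put 1 kinase in more SLK-KO than WT libraries, against 88.0% of those genes. The MYC lists held 201 to 365 summits in WT and 988 to 1420 in SLK-KO.

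The other 20 kinases of the STE20 family were read in the same way. A POL2 promoter summit was called at 15 of the 20 in at least 1 library, against 53.7% of all coding genes. In all 6 libraries it was called at 7 of these 15, against 33.6% of the 10765 genes with a summit. None of the 20 had the split of 3 SLK-KO and 0 WT libraries, against 2.87%, or the reverse, against 0.0186%. More SLK-KO than WT libraries held 6 of the 15, against 56.8%, and more WT libraries held 2, against 4.44%. MYC promoter summits were called at 3 of the 20, against 9.66% of all coding genes. All were in SLK-KO lists: MAP4K5 (ranks 707 and 630 in replicates 2 and 3), OXSR1, which regulates ion cotransporters (rank 1101 in replicate 1), and PAK2, a kinase downstream of Rac and Cdc42 (rank 626 in replicate 1). All 4 of these ranks exceed 365, the number of summits in the largest WT list for MYC. In POL2 lists of 5047 summits, 4 of the 15 with a summit had ranks without overlap, named here after their values were seen. These were 2 with better ranks in SLK-KO, against 8.57% of all genes with a summit, and 2 with better ranks in WT, against 5.98%. MAP4K5, on chromosome 14, ranked 964 to 1461 in SLK-KO against 2510 to 3312 in WT. PAK2, on chromosome 3, ranked 1134 to 1247 against 1877 to 2353. Chromosome 3 held 6.35% to 7.09% of POL2 summits in WT and 6.26% to 6.67% in SLK-KO, and the share of chromosome 14 was not computed. The part of these chromosomes was not tested. STK39 and MAP4K3, both on chromosome 2, ranked better in WT. STK39 ranked 3612 to 4776 in WT and was missing from all SLK-KO lists of this length. MAP4K3 ranked 1155 to 2374 in WT against 2654 to 4638 in SLK-KO. Chromosome 2 held 7.05% to 7.08% of POL2 summits in WT and 5.55% to 5.85% in SLK-KO, and its part in these ranks was not tested. POL2 body summits without overlap were found at 1 of the 8 with any, against 8.53% of 4279 coding genes with more in SLK-KO. This was OXSR1, with 0 in each WT list and 2, 2 and 1 in SLK-KO.

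As a check of the cell type, KRT8 and KRT18, keratins of simple epithelium, had a POL2 promoter summit in all 6 libraries. EPCAM had one in 1 WT and 3 SLK-KO libraries, and CDH1 in 1 WT library. PTPRC, a blood cell gene, and KLK3, a gene of the prostate lumen, had none.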

How the data were processed

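ChIP-seq of PC-3 cells gave 12 summit lists, 6 for POL2 and 6 for MYC. The design text states paired-end sequencing (50 bp) and nf-core/chipseq 2.1.0 on GRCh38.p14, and the submitters' processing notes name BWA 0.7.18-r1243 and MACS3 3.0.1. The deposited score of each summit was read as −log10 of the authors' q-value within its library, since no list holds a score under 1.30103. The POL2 lists and the SLK-KO lists for MYC begin just above this value. The WT lists for MYC begin at 1.39016 to 1.4289. The control used for peak calling is not given in the sources used here. The lists hold no counts, so depth is unknown.

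TSSs and gene limits came from GENCODE release 44 (20033 coding genes). Rank tests used the best-scored 5047 summits of each POL2 list and 201 of each MYC list. Genotypes were compared per gene by exact two-sided permutation over libraries with Benjamini-Hochberg adjustment over all coding genes with a summit there. No p was computed over the list of kinases. The design text calls replicates biological and names no separate cultures, so p-values measure the spread between these libraries, which may be technical. Named were all 10 kinases, of 20 other STE20 kinases and 21 partners those with a MYC promoter summit or a split of 3 libraries against 0, and the 3 genes most like SLK. Members and lists were chosen with earlier results of these data known. The counting was tested on simulated data. At most 1.50% of summit positions were identical between any 2 libraries of an antibody. Software was Python 3.11.15 with numpy 2.4.6, pandas 2.3.3 and pysam 0.24.0. A marker gene is not reported here.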

Additional observations from a re-analysis of the deposited data

How the results depend on the processing

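Of 68 alternatives, 57 stayed within the spread or count limits of the main value and 11 moved. The 57 are no measure of stability. They include 10 for the SLK rank and 10 for SLK body counts, which were 0 because SLK had no summit to count there. A further 11 were for MYC, where the count rests on 1 summit. The difference in kinases with a POL2 promoter summit was 3.33 of 10 and fell to 0.33 in lists of equal length. It was 0.50 with WT replicate 2 also left out and 0 with WT replicate 1 as the only WT library. These last 2 were chosen after seeing the data. The share of all coding genes in each list was not counted at equal length. Leaving out each library gave 1.33 (without WT replicate 2) to 4.83 (without WT replicate 1). For MYC, that range was 0 (without SLK-KO replicate 2) to 0.50.

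Kinases with POL2 promoter ranks that did not overlap numbered 0. Leaving out each library gave 0 to 1, STK4 without SLK-KO replicate 2. By percentile in the full lists, which differ in length, there were 3 of 9 (SLK, STK24 and MINK1), all better in SLK-KO, against 23.2% of 10765 genes better in SLK-KO and 0.288% better in WT, and the SLK difference was -32.5 points (exact permutation p = 0.1). The SLK rank difference was 0, or -1087 without WT replicate 2. Its range when leaving out each library was therefore -1087 to 0. Kinases with gene-body counts that did not overlap numbered 0, or 2 of 9 with the whole gene counted (STK24 and MINK1, against 6.58% of 10588 genes), where SLK differed by 0.33. Leaving out each library gave 0 to 1 (STK24 without WT replicate 1, MINK1 without SLK-KO replicate 3). The difference in SLK body counts was 0 whichever library was left out.

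Replicate numbers did not pair the POL2 libraries: deviations from the group means correlated at -0.0157 to 0.0525 within a number. With the replicate block, both SLK differences were 0, as they had to be: SLK had no body summit and none among the best 5047 in any POL2 list, so the block says nothing about stability. The number of libraries and the unknown depth limit each comparison.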

Other observations

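All 21 genes listed as partners and substrates of these kinases had a POL2 promoter summit in at least 1 library, against 53.7% of all coding genes. In all 6 libraries 9 of the 21 had one, against 33.6% of the 10765 genes with a summit. EZR, the ezrin substrate of SLK and STK10, ranked 231 to 399 in WT and 296 to 394 in SLK-KO, and had body summits in every library, 5, 1 and 4 in WT and 7, 2 and 4 in SLK-KO. RDX, for radixin, had the most body summits of the list, 20, 5 and 6 in WT and 8, 3 and 4 in SLK-KO, with overlapping ranges. None of the 21 had the split of 3 SLK-KO and 0 WT libraries, against 2.87%, or the reverse, against 0.0186%.

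In POL2 lists of 5047 summits, 2 of the 21 had better ranks in SLK-KO without overlap, against 8.57% of all genes with a summit, and 1 of the 21 in WT, against 5.98%. SAV1, the scaffold of STK3 and STK4, ranked 248 to 276 in WT and 92 to 111 in SLK-KO for POL2. RASSF1, which binds the same 2 kinases, ranked 3760 to 4066 in SLK-KO, and in WT it was missing from the best 5047 summits. SAV1 lies on chromosome 14, as does MAP4K5, and RASSF1 on chromosome 3, as does PAK2. The part of these chromosomes was not tested. CAB39, a scaffold of STRAD and of STK24 to STK26, ranked better in WT, at 1061 to 1534 against 1642 to 2191. It lies on chromosome 2, which held a lower share of POL2 summits in SLK-KO, and the part of that chromosome was not tested. The 3 genes with ranks without overlap, and EZR, RDX and RASSF5, were named after their values were seen. SAV1, RASSF1 and FGFR1OP2 each had a MYC promoter summit in 1 SLK-KO list, at ranks 1226, 956.5 and 472.5, and in no WT list. That made 3 of the 21 with a MYC promoter summit in any list, against 9.66% of all coding genes. POL2 body summit counts without overlap were found at 1 of the 9 partners with any, against 8.53% of 4279 coding genes with more in SLK-KO. This was RASSF5, with 1 in each SLK-KO list and none in WT.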
